A study of Arabidopsis thaliana with 9 samples.

Results

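Final leaf size in Arabidopsis thaliana is set by how long cells of the young leaf keep dividing and by how far they expand afterwards, and many regulators act on these steps apart from the GRF and TCP transcription factors. The 7 genes described here are such regulators, taken by locus code: the growth promoters ANT, ARGOS, JAG, KLU and EBP1, and the growth restrictors DA1 and BB. The deposited table held 6 of the 7 among its 20777 loci, and BB (AT3G63530) was not analysed here. All 6 had a value on every array, which for the dim ones need not reflect transcript.

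ARGOS is an auxin-inducible membrane protein that acts upstream of ANT, an AP2-type transcription factor that keeps cells competent to divide. JAG is a zinc finger factor that promotes blade growth and represses the CDK inhibitor genes KRP2 and KRP4. KLU, the cytochrome P450 CYP78A5, promotes growth of neighbouring cells through a mobile signal whose identity is not settled. EBP1 promotes growth in a dose-dependent way and is linked to ribosome assembly and TOR signalling. DA1 is a peptidase that limits the period of division and is activated by the ubiquitin ligases BB and DA2.

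Total RNA came from the vegetative part of Col-0 seedlings at growth stage 1.04, kept on MS medium at 22 °C with 16 h light and 8 h dark, and was hybridised to Affymetrix ATH1 arrays. The 9 arrays were 3 biological repeats each of wild type plants (WT), of the scarecrow mutant scr-3 (scr) and of the short-root mutant shr-5 (shr). SHR and SCR, the genes named after these mutants, encode transcription factors of the GRAS family that pattern the root's ground tissue, and the series title asks how they act on leaf growth and on S phase. Each mutant was represented by a single allele, and no rescued line entered the comparison. In such whole-shoot RNA, fewer cells of a type and less RNA per cell cannot be told apart. The number of arrays limits the precision.

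SHR, the gene mutated in shr-5, had a level of 4.77 ± 0.10 (log2, SD, n = 3) in shr against 6.66 ± 0.13 in WT, and fell by 1.89 on the log2 scale (SE 0.10, limma adjusted p = 2.87e-05). SCR was at 7.40 ± 0.25 in scr and 7.97 ± 0.03 in WT, a difference of -0.57 that did not pass (limma adjusted p = 0.110). SCR fell in shr by 0.51 (level 7.46, limma adjusted p = 0.0399), and the mutants differed by 0.06 (limma adjusted p = 0.847), so that its transcript does not tell scr from shr and gives the scr label no check. The array of shr replicate 3 stood apart, with correlations of 0.970 to 0.979 with the other 8 across loci, against 0.983 to 0.997 among those 8. Without it SCR passed in scr (limma adjusted p = 0.0391) and no longer in shr (-0.45, limma adjusted p = 0.0547), and the shr call was also lost without any 1 of the WT arrays, scr replicate 2 or shr replicate 2 (adjusted p up to 0.126). Of the mesophyll markers, GAPA and CA1 were measured and were bright on every array, with lowest values of 13.40 and 12.79. The floral markers AP1, LFY, AG, PI and AP3 lay in the lower 40% of loci by signal. Of the measured root markers, CASP1, CASP2 and EXPA7 lay there too, while COBL9 and PYK10 did not (WT means of 6.03 and 10.80).

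Of the 6 regulators, ARGOS was lower in shr than in WT past the threshold of the test. None of the others passed in any of the 3 comparisons. A gene passes here when its limma p-value, adjusted over all 20777 loci of a comparison with Benjamini and Hochberg's method, is under 0.05. In shr against WT, 1 of 6 fell and 0 rose, where 3.79% of all loci fell and 8.14% changed in either direction. At an unadjusted p under 0.05 it was 2 of 6, both lower, where 24.6% of all loci differed. In scr against WT, 0 of 6 passed, where 0.366% of all loci did, and 4 of 6 were lower at an unadjusted p under 0.05 (11.0% of all loci in either direction). Between the mutants 0 of 6 passed (1.34% of all loci), and 1 did at an unadjusted p under 0.05, where 16.7% of all loci did. The median difference of the 6 was -0.26 in scr and -0.18 in shr against WT on the log2 scale, while the median over all loci was 0.0050 and -0.012. Both mutants were compared with the same WT arrays, so their differences from WT are not independent of each other. In scr, 3 of 6 had every value below every WT value and 1 had every value above, where 10.6% and 11.5% of all loci did. In shr, 2 of 6 lay wholly below WT, where 15.1% of all loci did, and 1 of 6 lay wholly below scr, where 10.8% of all loci did.

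**Figure D1:**
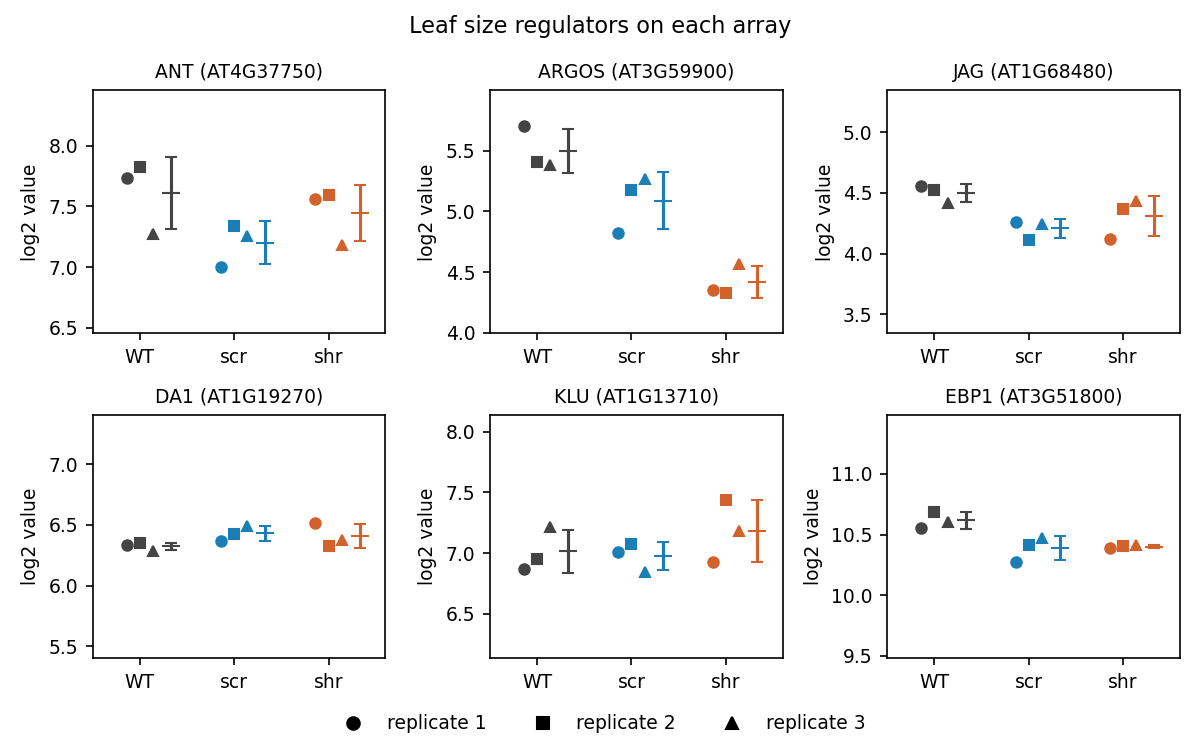
Log2 value of each of the 6 measured regulators (vertical axes, each spanning 2 log2 units) on the 9 arrays, by genotype (horizontal axes). Symbols are single arrays, and the bar beside each group is its mean ± SD (n = 3). ARGOS is highest in WT and lowest in shr without overlap, and the EBP1 values of both mutants lie below all WT values.

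ARGOS (AT3G59900) had log2 values of 5.71, 5.40 and 5.38 in WT, 4.83, 5.18 and 5.26 in scr, and 4.35, 4.33 and 4.57 in shr, given here and below in the order of the replicate numbers. Every shr value lay below every scr value, and every scr value below every WT value. The group levels were 5.50 ± 0.18 in WT, 5.09 ± 0.23 in scr and 4.42 ± 0.13 in shr (SD, n = 3). ARGOS fell in shr against WT by 1.08 (SE 0.14, 95% interval -1.39 to -0.77, limma adjusted p = 0.00287). The measured WT level was thus 2.11-fold that of shr. The shr values are as dim as those of JAG, for which transcript and array background cannot be told apart, so this fold may be a lower bound. The call held in all 9 fits that left out 1 array, with differences of -1.16 to -0.98 and an adjusted p of up to 0.0146. Without shr replicate 3 the difference was -1.16 (limma adjusted p = 9.94e-04).

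In scr the difference of ARGOS from WT was -0.41 (SE 0.14, 95% interval -0.72 to -0.10, limma adjusted p = 0.286), which did not pass. Between the mutants, shr lay below scr by a log2 difference of -0.67 (SE 0.14, 95% interval -0.98 to -0.36, limma adjusted p = 0.0545), just short of the threshold. That comparison passed without shr replicate 3 (-0.75, limma adjusted p = 0.0250). It passed too with every array shifted to a common median (adjusted p = 0.0463) and with array quality weights (adjusted p = 0.0209). In the order WT, scr, shr, neither pair of neighbours differed past the threshold in the fit with equal weights on the deposited values of all 9 arrays, although their values did not overlap. ARGOS is among the dimmer 40% of loci by mean signal, so it is not tested once those are left out.

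**Figure D2:**
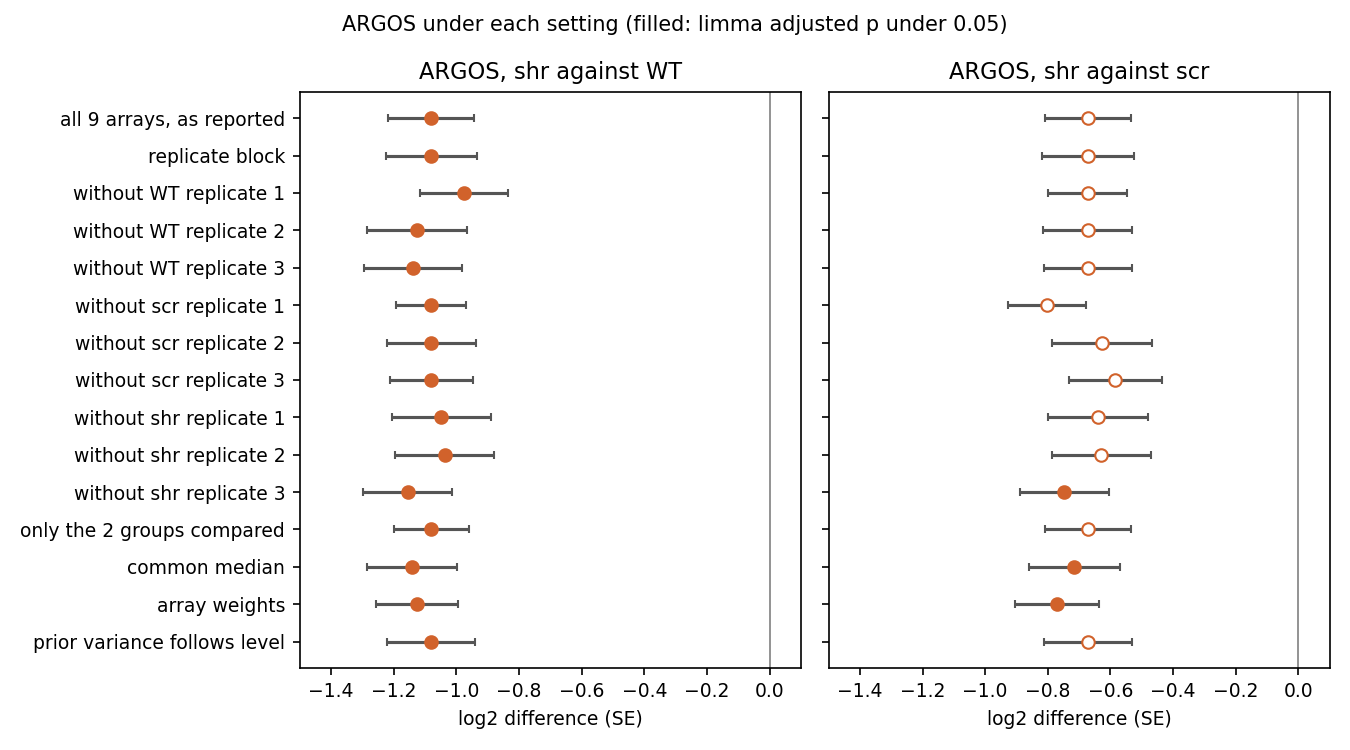
Log2 difference of ARGOS (horizontal axes, bars are standard errors) in shr against WT on the left and shr against scr on the right, with all arrays and under 14 other settings (vertical axis). Filled symbols have a limma adjusted p under 0.05. All settings are filled for shr against WT, and 3 are filled for shr against scr.

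ANT (AT4G37750), which acts downstream of ARGOS, had no difference that passed. Its log2 values were 7.73, 7.82 and 7.28 in WT, 7.004, 7.34 and 7.26 in scr, and 7.56, 7.59 and 7.18 in shr. The WT and shr arrays of replicate 3 were the lowest of their groups, and the groups overlapped. The level in shr was 7.44 ± 0.23 against 7.61 ± 0.29 in WT, a difference of -0.17 (95% interval -0.55 to 0.22, limma adjusted p = 0.597). That difference ranged from -0.33 without WT replicate 3 to -0.03 without shr replicate 3. In scr the level was 7.20 ± 0.18, a difference from WT of -0.41 (SE 0.17, 95% interval -0.79 to -0.03, limma adjusted p = 0.419). ANT was the most variable of the 6 between replicates, with the largest standard error of a difference. The scr difference ranged from -0.58 to -0.30 when 1 array was left out, and no fit called it.

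JAG (AT1G68480) was dim throughout, in the lower 40% of loci by mean signal. It had log2 values of 4.56, 4.52 and 4.42 in WT, 4.26, 4.12 and 4.24 in scr, and 4.12, 4.37 and 4.43 in shr. All scr values lay below all WT values, while the shr values overlapped both groups. The difference from WT was -0.29 (SE 0.10, 95% interval -0.51 to -0.08, limma adjusted p = 0.276) in scr and -0.19 (95% interval -0.41 to 0.02, limma adjusted p = 0.256) in shr, the latter -0.25 to -0.10 when 1 array was left out. Whether these values reflect JAG transcript or array background cannot be told apart in this table, which holds no detection call.

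EBP1 (AT3G51800) had small differences from WT in both mutants that did not pass. Its log2 values were 10.55, 10.69 and 10.61 in WT, 10.27, 10.42 and 10.47 in scr, and 10.39, 10.40 and 10.41 in shr. Every value of either mutant lay below every WT value, and the shr values lay inside the scr range. The difference from WT was -0.23 (SE 0.07, 95% interval -0.40 to -0.06, limma adjusted p = 0.267) in scr and -0.22 (SE 0.07, 95% interval -0.38 to -0.05, limma adjusted p = 0.114) in shr. Between the mutants it was 0.01 (95% interval -0.15 to 0.18, limma adjusted p = 0.944).

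KLU (AT1G13710) showed no order of the genotypes beyond the spread of its replicates. Its log2 values were 6.87, 6.95 and 7.22 in WT, 7.01, 7.07 and 6.85 in scr, and 6.93, 7.44 and 7.18 in shr. All 3 groups overlapped. The difference from WT was -0.04 (95% interval -0.35 to 0.28, limma adjusted p = 0.964) in scr and 0.17 (95% interval -0.15 to 0.49, limma adjusted p = 0.512) in shr. In scr its sign turned without WT replicate 3 or scr replicate 3 (0.066 and 0.029). In shr it ranged from 0.04 without shr replicate 2 to 0.30 without shr replicate 1.

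DA1 (AT1G19270), the measured restrictor of growth, had the smallest spread of group means among the 6. Its log2 values were 6.33, 6.35 and 6.29 in WT, 6.37, 6.43 and 6.49 in scr, and 6.52, 6.33 and 6.38 in shr. The scr values lay just above all WT values, and the shr values overlapped both other groups. The difference from WT was 0.11 (95% interval -0.06 to 0.27, limma adjusted p = 0.681) in scr and 0.08 (95% interval -0.09 to 0.25, limma adjusted p = 0.543) in shr. The shr difference ranged from 0.03 without shr replicate 1 to 0.12 without shr replicate 2. At the 95% level, before any adjustment for the number of loci, these intervals reach no higher than 0.27 on the log2 scale.

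**Figure D3:**
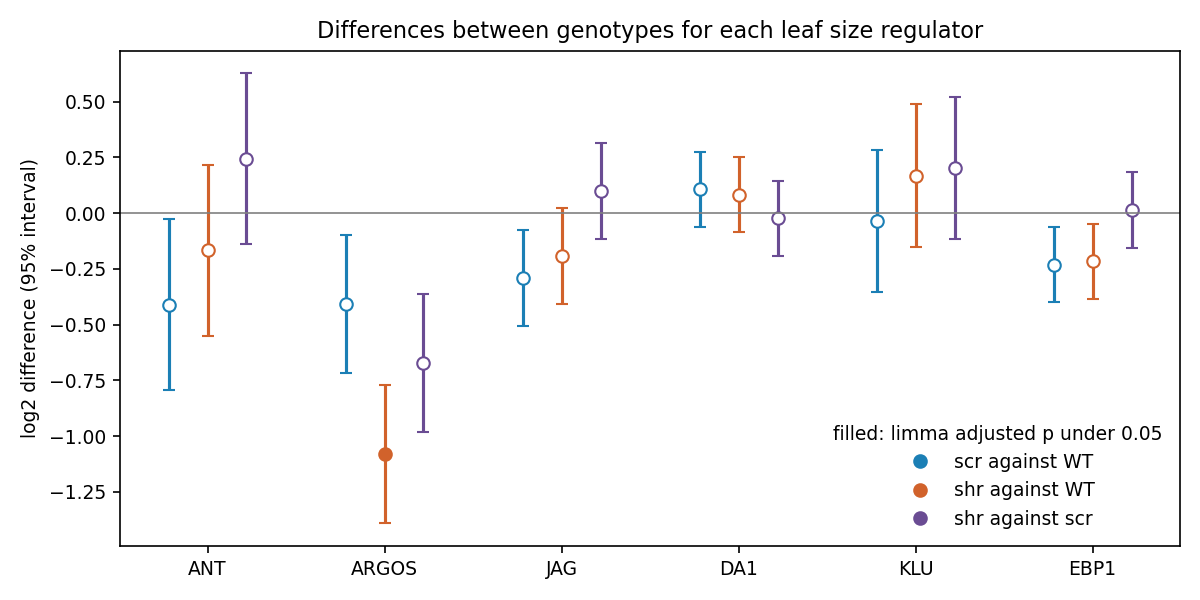
Log2 difference of each regulator (vertical axis) with its 95% interval from the limma fit in the 3 comparisons of genotypes. The filled symbol, ARGOS in shr against WT at -1.08, is the only one with a limma adjusted p under 0.05.

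Small differences of single genes often changed in relative size or sign when 1 array was left out. Over the regulators, SHR, SCR and all genes listed below, 240 differences did not pass, and 173 of them moved by over 1.5 times in at least 1 fit without 1 array, 81 of them turning sign. Close to 0 a small shift is enough for either, so these counts do not show that a difference rested on 1 array. Of the 21 that passed, 0 moved that far. This follows in part from the threshold, since only differences that are large beside their standard error pass. It does not mean that the calls held: several were lost without 1 array, as given with each gene.

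Among the 20 family relatives of the regulators, all measured, 0 changed in scr and 1 fell in shr against WT. Of all loci 0.366% changed in scr and 3.79% fell in shr. Before adjustment, p was under 0.05 for 3 relatives in shr and 2 in scr, where 24.6% and 11.0% of all loci had such a p. The median difference of the relatives was -0.017 in scr and -0.041 in shr, beside 0.0050 and -0.012 over all loci. The relative that fell was ARL (AT2G44080), ARGOS-LIKE, which promotes cell expansion in the response to brassinosteroid. ARL had log2 values of 8.09, 7.88 and 8.19 in WT, 8.14, 7.98 and 7.93 in scr, and 7.21, 7.64 and 6.93 in shr. All shr values lay below those of the other groups, and the scr and WT values overlapped. ARL fell in shr by 0.79 (SE 0.17, limma adjusted p = 0.0239), with a WT level 1.73-fold that of shr. Its difference in scr was -0.04 (limma adjusted p = 0.968). The call was lost without any 1 of the WT arrays (adjusted p up to 0.0889) and with WT and shr arrays alone. Between the mutants ARL differed by -0.76 (limma adjusted p = 0.0676).

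OSR1 (AT2G41230), the other ARGOS relative listed, was dim, with a difference of -0.12 in shr (95% interval -0.33 to 0.10, limma adjusted p = 0.489) that ranged from -0.20 to -0.03 when 1 array was left out. NUB, the close relative of JAG, had values of -0.09 in scr and -0.33 in shr (limma adjusted p = 0.902 and 0.249). The scr value turned to 0.03 without scr replicate 3 and was -0.24 without scr replicate 2, and the shr value ranged from -0.44 to -0.21 when 1 array was left out. Of the DA1 relatives, DAR4, which joins a LIM domain to an immune receptor, was higher in shr than in scr by 0.71 (SE 0.12, limma adjusted p = 0.0271). Its differences from WT were -0.34 in scr (adjusted p = 0.309) and 0.37 in shr (adjusted p = 0.0902), the latter 0.24 without shr replicate 3. The DAR4 call was lost without WT replicate 3, shr replicate 2 or any 1 of the scr arrays (adjusted p up to 0.114). DAR3 had a value of 0.86 in shr against WT with a wide interval (-0.17 to 1.90, limma adjusted p = 0.283). Its shr values were 3.99, 4.09 and 6.05, and without shr replicate 3 the difference was 0.19. The KLU relative CYP78A9 was at -0.34 and the ANT relative AIL5 at 0.24 in scr (limma adjusted p = 0.705 and 0.315).

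Of 16 genes that act upstream or downstream of the regulators, all measured, 2 rose and 1 fell in shr, and 0 changed in scr. Of all loci 8.14% changed in shr and 0.366% in scr. Before adjustment, p was under 0.05 in scr for 4 of the 16, where 11.0% of all loci had such a p. The median difference of the 16 was 0.13 in scr and 0.17 in shr. S6K2 (AT3G08720), a ribosomal S6 kinase of the TOR pathway, had log2 values of 5.79, 5.52 and 5.49 in WT, 6.02, 5.61 and 6.21 in scr, and 6.94, 6.73 and 7.36 in shr. The shr values stood above all others, and the difference of scr from WT was 0.35 (limma adjusted p = 0.566). S6K2 rose in shr by 1.41 (SE 0.19, limma adjusted p = 0.00393), a call kept in all 9 fits that left out 1 array. It was also higher in shr than in scr by 1.06 (limma adjusted p = 0.0381), a call lost in 8 of the 9 fits, all but the one without shr replicate 3 (adjusted p up to 0.114). The paralogue S6K1, TOR, its partner RAPTOR1 and TCTP had differences of -0.16, 0.18, 0.33 and 0.20 in shr (limma adjusted p = 0.654, 0.408, 0.0827 and 0.0876). Without shr replicate 3, S6K1 and TOR were at 0.05 each.

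ARF2 (AT5G62000), an auxin response factor that restricts organ growth and lowers ANT and CYCD3 activity, had log2 values of 9.39, 9.31 and 9.18 in WT, 9.68, 9.64 and 9.59 in scr, and 9.65, 9.60 and 9.78 in shr. Both mutants lay above WT without overlap. ARF2 rose in shr by 0.38 (SE 0.08, limma adjusted p = 0.0260), and its difference in scr was 0.34 (limma adjusted p = 0.139). The shr call was lost when WT replicate 2 or 3 was left out (highest adjusted p = 0.0929). CYCD3;2, one of the D-type cyclins that keep leaf cells dividing, fell in shr by 0.54 (limma adjusted p = 0.0403) and had a difference of -0.39 in scr (limma adjusted p = 0.288). Its call was lost in 6 of the 9 fits that left out 1 array (each WT array, scr replicate 2 or 3, and shr replicate 2, adjusted p up to 0.124). CYCD3;1 and CYCD3;3 had differences of 0.17 and 0.02 in shr (limma adjusted p = 0.151 and 0.927), the latter -0.08 to 0.14 when 1 array was left out. Every shr value of CYCD3;1 lay above every WT value. The JAG targets KRP2 and KRP4 were at 0.17 and 0.15 in shr, and at 0.26 and -0.06 in scr, and none of these passed. KRP4 was at 0.03 in shr without shr replicate 3 and at -0.0024 in scr without scr replicate 2. Of the DA1 pathway, DA2 was at 0.17 in shr (limma adjusted p = 0.192) and UBP15, a deubiquitinase that DA1 cleaves, at 0.07 (limma adjusted p = 0.835), the latter -0.02 to 0.22 when 1 array was left out. Between the mutants UBP15 and KRP4 were at -0.22 and 0.21 (limma adjusted p = 0.524 and 0.447), which became -0.07 without shr replicate 2 and 0.09 without shr replicate 3, respectively.

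**Figure D4:**
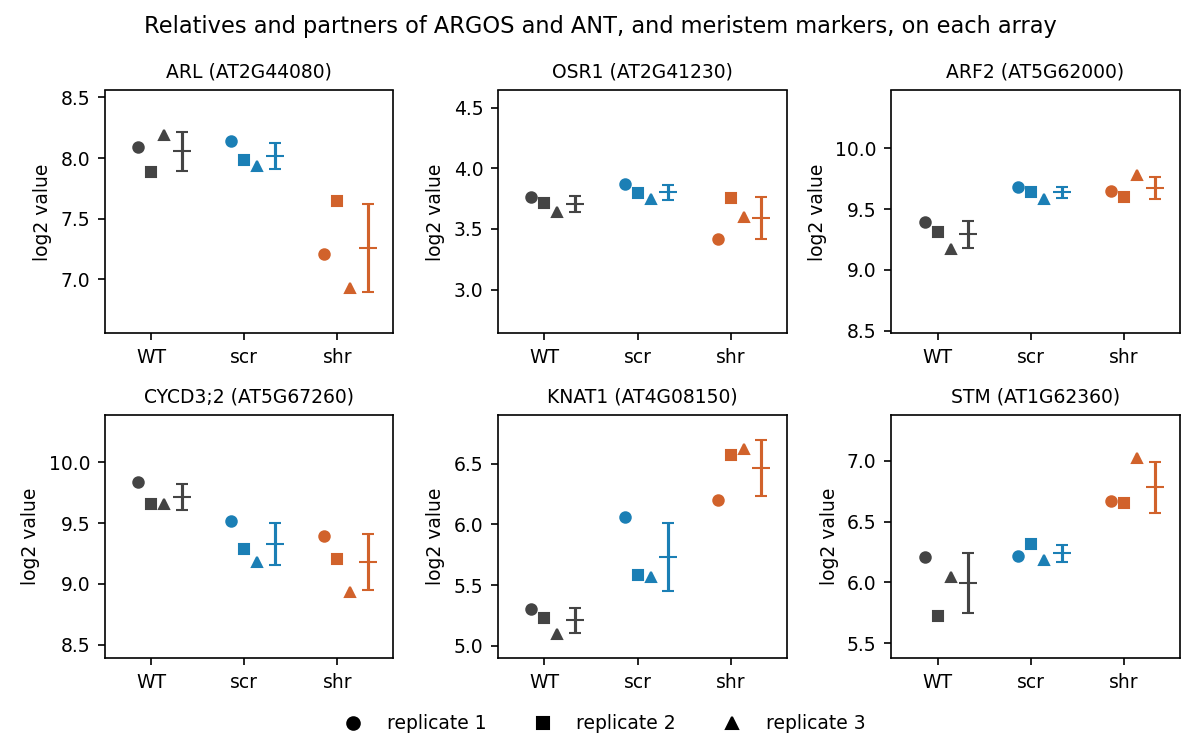
Log2 values on the 9 arrays (vertical axes, each spanning 2 log2 units) of the ARGOS relatives ARL and OSR1, of ARF2 and CYCD3;2, and of the meristem genes KNAT1 and STM, by genotype, drawn as for the regulators. ARL, KNAT1 and STM separate shr from both other groups. ARF2, CYCD3;2 and KNAT1 separate both mutants from WT.

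Of 18 other leaf size genes, 15 were measured, 1 rose in shr and 0 passed in scr, where 8.14% and 0.366% of all loci changed. Before adjustment, p was under 0.05 in scr for 3 of the 15, where 11.0% of all loci had such a p. The median difference of the 15 was 0.056 in scr and 0.14 in shr. The gene that rose was ROT3 (AT4G36380), a cytochrome P450 of brassinosteroid metabolism that promotes leaf length. ROT3 had log2 values of 5.30, 5.18 and 5.41 in WT, 5.84, 5.53 and 5.54 in scr, and 6.45, 6.32 and 5.75 in shr, so that shr replicate 3 lay within the scr range. It rose in shr by 0.87 (SE 0.17, limma adjusted p = 0.0187), a call lost without shr replicate 2 or any 1 of the WT arrays (adjusted p up to 0.0787). Its difference in scr was 0.34 (limma adjusted p = 0.534). ROT3 is also among the dimmer 40% of loci by mean signal, so it is not tested once those are left out. In shr, LNG1, a gene of longitudinal leaf growth, and PPD2, a restrictor of dispersed divisions, had values of 0.38 and 0.30 (limma adjusted p = 0.415 and 0.240). Without shr replicate 3 these were 0.02 and 0.14. In scr, the locus AT3G24150 and UBP14 were at 0.37 and 0.27 (limma adjusted p = 0.304 and 0.266). Between the mutants ROT3, ERL2, an ERECTA-family receptor gene, and PPD2 were at 0.53, -0.43 and 0.36 (limma adjusted p = 0.171, 0.382 and 0.253). Without shr replicate 3, ERL2 was at -0.12 and PPD2 at 0.21, and ROT3 passed (0.74, limma adjusted p = 0.0118). LNG2, a relative of LNG1, passed in that fit as well, at -0.59 in shr against WT and -0.71 against scr (limma adjusted p = 0.0159 and 0.0204), where with all arrays it was at -0.13 and -0.25 (limma adjusted p = 0.844 and 0.739).

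Markers of other cell states differed in shr as well. Of 10 dividing cell markers 9 were measured, and 6 fell in shr: CYCB1;1 (-0.72), AUR2 (-0.70), KNOLLE (-0.62), PLE (-0.57), CYCA1;1 (-0.57) and CDKB2;1 (-0.50). Of all loci 3.79% fell in shr. In scr 0 of 9 passed and 8 were lower at an unadjusted p under 0.05. There 0.366% of all loci passed and 11.0% had such a p in either direction. AUR2 was at -0.57 in scr, KNOLLE at -0.50 (limma adjusted p = 0.0510) and CDKB2;1 at -0.48 (limma adjusted p = 0.0522). Without shr replicate 3, 5 of the markers fell in scr, where 2.86% of all loci changed in either direction. The summed linear level of these markers was 2086 to 2268 in WT, 1569 to 1705 in scr and 1422 to 1569 in shr. All mutant sums were below all WT sums, and the median difference of the markers was -0.37 in scr and -0.57 in shr. The CYCA1;1 call was lost whenever a WT or scr array was left out (highest adjusted p = 0.129), and the AUR2 call whenever a WT array was (highest adjusted p = 0.0816). Between the mutants CYCB1;1, PLE and CYCA1;1 had values of -0.27, -0.21 and -0.20, none of which passed, and CYCB1;1 and CYCA1;1 were at -0.15 and -0.04 without shr replicate 3.

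Of the 7 shoot meristem and boundary markers, all measured, KNAT1 rose in shr by 1.26 (SE 0.16, limma adjusted p = 0.00251) and STM by 0.79 (SE 0.14, limma adjusted p = 0.0121). Both are KNOX homeobox genes that are kept off in leaf primordia. The median difference of the 7 was 0.058 in scr and 0.017 in shr. Of all loci 8.14% changed in shr and 0.366% in scr. In scr 0 of 7 passed and KNAT1, STM and CUC3 were at 0.52, 0.24 and -0.13 (limma adjusted p = 0.226, 0.591 and 0.775). STM was at 0.11 there without WT replicate 2, and CUC3 at -0.03 without scr replicate 1. Between the mutants KNAT1 and STM were at 0.73 and 0.54 (limma adjusted p = 0.0628 and 0.0977). The summed level was 183 to 207 in WT, 212 to 234 in scr and 275 to 316 in shr, while WUS and CLV3, which define the stem cell region, were dim in all groups and differed by -0.08 and 0.03 in shr. In shr, 4 of the 7 were above 0 and 3 below, so the higher sum is not a rise of every marker. CUC1 was at -0.11 (limma adjusted p = 0.347), with every shr value below every WT value. Of 5 measured root markers, PYK10, a beta-glucosidase abundant in roots, rose in shr by 0.84 (limma adjusted p = 7.64e-04), and was higher in shr than in scr by 0.54 (limma adjusted p = 0.0195). CASP1, CASP2, COBL9 and EXPA7 did not pass in any of the 3 comparisons, and PYK10 was at 0.30 in scr (limma adjusted p = 0.180). The PYK10 call between the mutants was lost without shr replicate 2 or any 1 of the scr arrays (adjusted p up to 0.0853). The summed level of the root list, mostly PYK10, was 1819 to 2022 in WT, 2175 to 2518 in scr and 3237 to 3444 in shr. Of 5 floral markers 0 passed in either mutant (0 at an unadjusted p under 0.05), with sums of 74.7 to 77.4 in WT, 74.7 to 82.6 in scr and 72.2 to 80.4 in shr. Of 5 mesophyll markers 2 were measured and 0 passed. CA1, a carbonic anhydrase gene, was at -0.30 in shr (limma adjusted p = 0.0816), with every shr value below every WT value, and at -0.21 without shr replicate 3. GAPA was at -0.06. Their summed level was 21900 to 22432 in WT, 19948 to 21728 in scr and 18652 to 21740 in shr, below WT on every mutant array. The part of dividing cells, meristem, mesophyll or root tissue in the ARGOS difference was not tested.

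**Figure D5:**
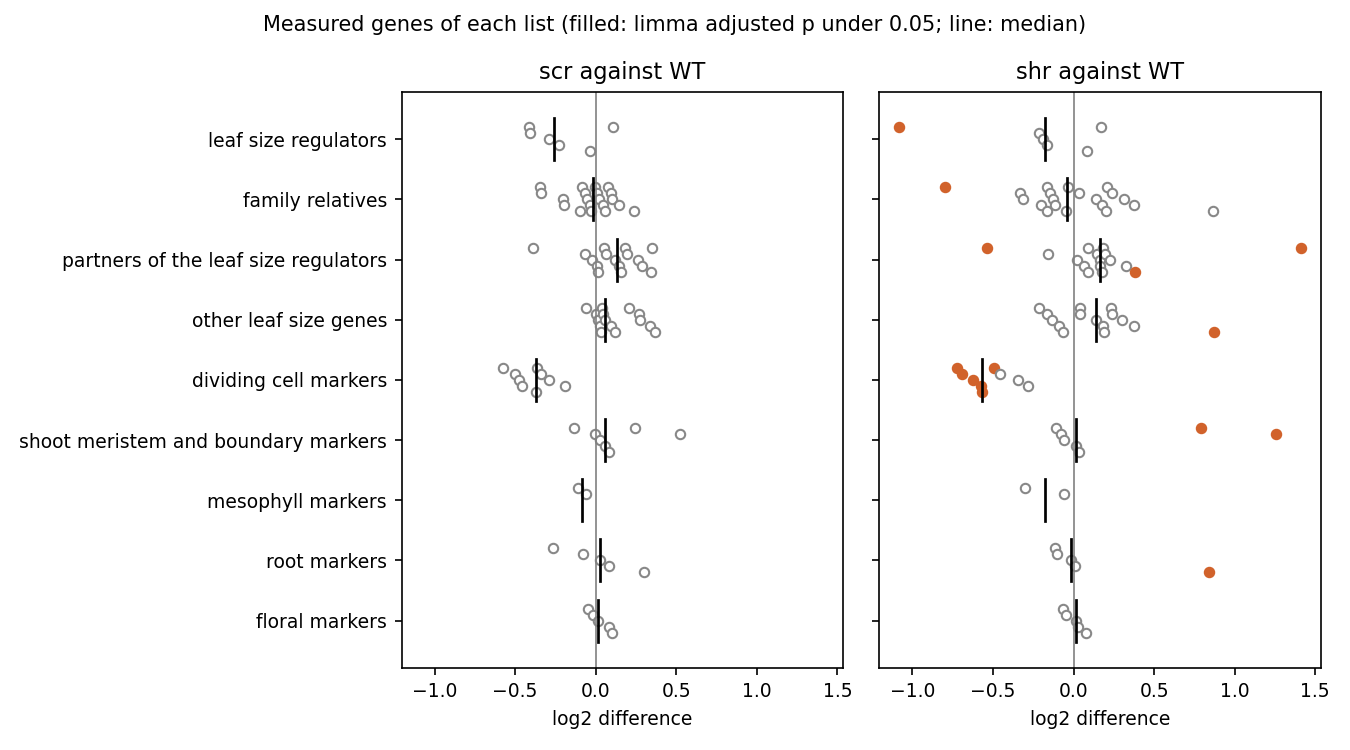
Log2 difference (horizontal axes) of every measured gene of the leaf size regulators, the related lists and the marker lists (vertical axis) in scr against WT and shr against WT. Filled symbols have a limma adjusted p under 0.05 and black lines are list medians. No symbol is filled for scr, and in shr the 6 filled dividing cell markers all lie below 0.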

How the data were processed

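The authors deposited log2 values made with RMA (background correction, quantile normalisation and summary of probe sets), per the submitters' processing notes. The log2 scale was inferred from the range, 2.90 to 14.03. No RMA version, probe mapping or filter is recorded in the labels used. Each locus had 1 row. A RefSeq gene table (TAIR10.1) matched 20508 loci and all 6 measured regulators, and gave the symbols of the loci most like each regulator. The regulators and listed genes carry common names assigned to their locus codes. For some these differ from the RefSeq symbol, as for EBP1 (ATG2) and KNOLLE (SYP111). No coordinates or sequences are given.

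A linear model with a mean per genotype was fitted over all 9 arrays and 20777 loci with limma 3.58.1 in R 4.3.3 (6 residual and 2.99 prior degrees of freedom). P-values are two-sided and adjusted over all loci of a comparison. Intervals are moderated 95% intervals of single genes. The fit was also run on simulated data with independent noise. That noise held no outlying array and no paired replicates, so the run says nothing on how these affect the calls.

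Replicate numbers may pair scr and WT arrays, as the deviations of 3 of 3 such pairs correlated at over 0.1 (0.277, 0.138 and 0.107). Arrays with unlike replicate numbers were not compared in this way, so these values do not establish a pairing. The labels state none. For shr the number of such pairs was 1 of 3 with WT (0.204, -0.106 and 0.0994). With scr it was 2 of 3 (0.444, -0.045 and 0.335), which held the largest correlations, and no pairing was assumed. The reported fit holds no block, so a pairing, if real, enters only the alternative fit with a block.

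The regulators and lists were chosen with earlier results of these data known. The rule named all measured regulators, SHR and SCR, every listed gene past the threshold and, up to 3 per list, the largest differences, as well as the 2 loci most like each regulator. Some further genes of these pathways were added for their known role after their values were seen, and some marker genes with small differences are summarised only. Alternatives were a replicate block, leaving out each array, only the groups compared, leaving out the dimmer 40% of loci, a common median, array weights, and a prior variance that follows the level.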

Additional observations from a re-analysis of the deposited data

How the results depend on the processing

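The 6 regulators in 3 comparisons gave 18 differences, recomputed 264 times: 254 kept direction and side of the threshold, 0 lost a call, 3 gained one (ARGOS in shr against scr, given above) and 7 changed sign. Those 7 were of differences close to 0 that never passed. They were KLU in scr against WT (0.066 and 0.029 without WT or scr replicate 3, and -0.11 to 0.066 over the fits without 1 array), DA1 in shr against scr (0.0068 without scr replicate 3 and 0.016 without shr replicate 2, range -0.079 to 0.016), and EBP1 in shr against scr (-0.041 without scr replicate 1, range -0.041 to 0.055, -0.029 at a common median and -0.0056 with array weights). The count of regulators that changed in shr against WT was 1, also in all fits without 1 array, and 0 without the dimmer 40% of loci, where ARGOS and JAG are not tested. In shr against scr it was 0, with 0 to 1 in the fits without 1 array, and 1 at a common median or with array weights. In scr against WT it was 0 under every alternative run. With the replicate number as a block the counts were 0 in scr against WT, 1 in shr against WT (ARGOS adjusted p = 0.0090) and 0 in shr against scr (ARGOS adjusted p = 0.0851), so the block changed no call of a regulator. It ended the call of CYCA1;1 in shr (adjusted p = 0.0506). With only the arrays of the groups compared, ARL, ARF2, CYCD3;2, ROT3, CYCA1;1 and AUR2 in shr against WT, and DAR4, S6K2 and PYK10 in shr against scr, did not pass.

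Over the fits without 1 array, the number of changed genes in shr against WT was 0 to 2 family relatives, 1 to 3 partners, 0 to 2 other leaf size genes, 4 to 7 dividing cell markers and 0 to 1 mesophyll markers, and 0 to 5 dividing cell markers in scr. In shr against scr it was 0 to 1 each for family relatives, partners, meristem markers and root markers, and 0 to 2 other leaf size genes. Without shr replicate 3 the share of all loci called in scr against WT was 2.86% in place of 0.366%. The shares of all loci in the other fits are not given here, so these ranges cannot be read as particular to the lists. The table holds no detection calls, so transcript and array background cannot be told apart for dim genes such as JAG.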

Other observations

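The loci whose log2 values over the 9 arrays were most like each regulator were taken from 8675 loci with a symbol of their own, by Pearson correlation. The arrays share genotypes, and the highest of so many correlations is high by selection, so these values describe the arrays and carry no test. The same choice favours loci that differ between genotypes as their regulator does. Their differences and p-values below are therefore descriptive and lend the regulator no support. For ARGOS they were ABCG6 (r = 0.987), an ABC transporter gene, and APS4 (r = 0.983), an ATP sulfurylase gene. Both also fell in shr against WT, ABCG6 by 0.40 and APS4 by 0.91 (limma adjusted p = 0.0154 and 7.36e-04). The APS4 call held in all 9 fits that left out 1 array, and the ABCG6 call was lost in 3 of them (WT replicate 1 or 2 and shr replicate 2, adjusted p up to 0.0569). For EBP1 they were WHY3 (r = 0.970), an organelle DNA-binding protein gene, and HTA8 (r = 0.964), a histone H2A gene. In shr WHY3 fell by 0.48 and HTA8 by 0.63 (limma adjusted p = 0.0394 and 0.0221). In scr they were at -0.43 and -0.65 (limma adjusted p = 0.188 and 0.0862). The shr calls were lost in 6 of the 9 fits for WHY3 (any 1 of the WT arrays, scr replicate 2, and shr replicate 1 or 2, adjusted p up to 0.133) and in 4 for HTA8 (any 1 of the WT arrays and shr replicate 2, adjusted p up to 0.0886).

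The remaining regulators were nearest to SAR1B and TOPP4 for ANT (r = 0.948 and 0.938), ATL8 and CYP83B1 for JAG (r = 0.912 and 0.906), FIS1B and PSAT1 for DA1 (r = 0.934 and 0.917), and LURP1 and TET9 for KLU (r = 0.965 and 0.921). None of these 8 genes passed the threshold in any of the 3 comparisons. Over all loci of the table, 114 correlated with ARGOS and 137 with EBP1 at r over 0.9, against 8 with ANT, 9 with JAG, 3 with DA1 and 6 with KLU.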
